A study of Mus musculus with 2 samples.

Results

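The 37 genes described here encode enzymes, carriers and regulators that burn fatty acids in mitochondria and peroxisomes, and they were measured in kidney RNA of mice with and without *Cnnm2*. They were taken as a list of gene symbols, and their values played no part in the choice. All 37 of the 37 symbols are carried by probes on both arrays, among 31821 gene names. Mice that are *Cnnm2*fl/fl;*Six2-Cre* gave the knockout sample, and *Cnnm2*+/+;*Six2-Cre* mice gave the control sample. The mice were 2 months old, untreated, and carried the *Six2-Cre* driver in both groups. *Six2-Cre* is active in the progenitors of the nephron, so cells of other origin, such as those of vessels and collecting ducts, keep *Cnnm2*. The study's text names C57BL6/J as the background of its mice, without naming this line, and sex matching of males and females in its experiments. The sex and the number of the mice behind these arrays are not given in the sources used here.

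Both samples were hybridized together on 2 arrays of 2 colours. The knockout RNA carried Cy5 on array 1 and Cy3 on array 2, and the control RNA carried the other dye. The exchange of dyes was taken to repeat the labeling of the same RNA, which the sources do not state, so each genotype counts as 1 replicate. No test between genotypes was possible, and each SD below is that of the 2 arrays. It covers labeling and hybridization and leaves out the spread between mice. The values are log2 ratios of knockout over control, from signal intensities that the scanner software had corrected for background and for the dyes, with the brightest probe standing for each gene. A gene entered the comparison if the software called its probe well above background for the same genotype on each array, and 19707 genes did. The *Cnnm2* probe read -2.88 on array 1 and -2.46 on array 2 as log2 ratios. Whether it lies in the deleted part of the gene is not given.

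Cells activate a fatty acid to an acyl-CoA, pass long acyl chains into mitochondria on carnitine, and shorten them by repeated cycles of dehydrogenation, hydration, oxidation and thiolysis. Peroxisomes shorten very long and branched chains by a parallel set of enzymes and break down the hydrogen peroxide they make with catalase. The nuclear receptor PPAR-alpha, with its partner RXR and coactivators such as the product of *Ppargc1a*, drives many of these genes. Kidney proximal tubule cells draw most of their energy from fatty acids and are rich in both organelles.

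No member reached a 2-fold difference with the same direction on both arrays, and the pathway as a whole stood near the rest of the array. The median log2 ratio of the 37 members was 0.03, against -0.01 over all genes compared. Among members with an equal direction on both arrays, *Acsm3*, a medium-chain acyl-CoA synthetase, had the highest mean in the knockout sample, at 1.49-fold, though its direction was lost under 1 alternative. *Ppargc1a*, the transcriptional coactivator, had the lowest, with a 1.32-fold difference that fell short of 1.3-fold under 2 alternatives. *Acot4*, *Pdk4* and *Ppargc1a* were the members whose direction held on both arrays under all 10 alternatives that use both. Most of these alternatives left the ratios of the members almost as they were, so they could hardly change a direction.

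In either genotype, all 37 members gave signals well above background on each array. None had a saturated spot, and 33 of them had a log2 signal above 10 in every channel. By the direction of both arrays alone, 5 members were higher in the knockout sample and 2 were lower. Over all genes compared, the same rule counted 12.1% as higher and 15.6% as lower, and among the members the shares were 13.5% and 5.41%. With a mean of at least 1.3-fold (0.38 on the log2 scale), 1 member was higher and 1 was lower, where the rule counted 2.14% and 2.44% of all genes. At 2-fold it counted 0 and 0 members, and 0.315% and 0.284% of all genes.

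The other 30 members (81.1%) changed direction when the dyes were exchanged, as did 72.3% of all genes. In 18 of these the Cy3 signal was the higher on both arrays, and in 12 the Cy5 signal was. Across the 37 members the log2 ratios of the arrays had a Pearson's r of -0.76 and a Spearman's rho of -0.55, a description of points that share both arrays, and across all genes the r was -0.51. Without *Acot2* and *Crat*, the members with the widest gaps between the arrays, the r across 35 members was -0.37. The mean of both arrays cancels a constant dye effect, and its SD across members was 0.24, against 0.23 across all genes. The mean exceeded the SD of the arrays for 6 members and for 20.7% of all genes.

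**Figure D1:**
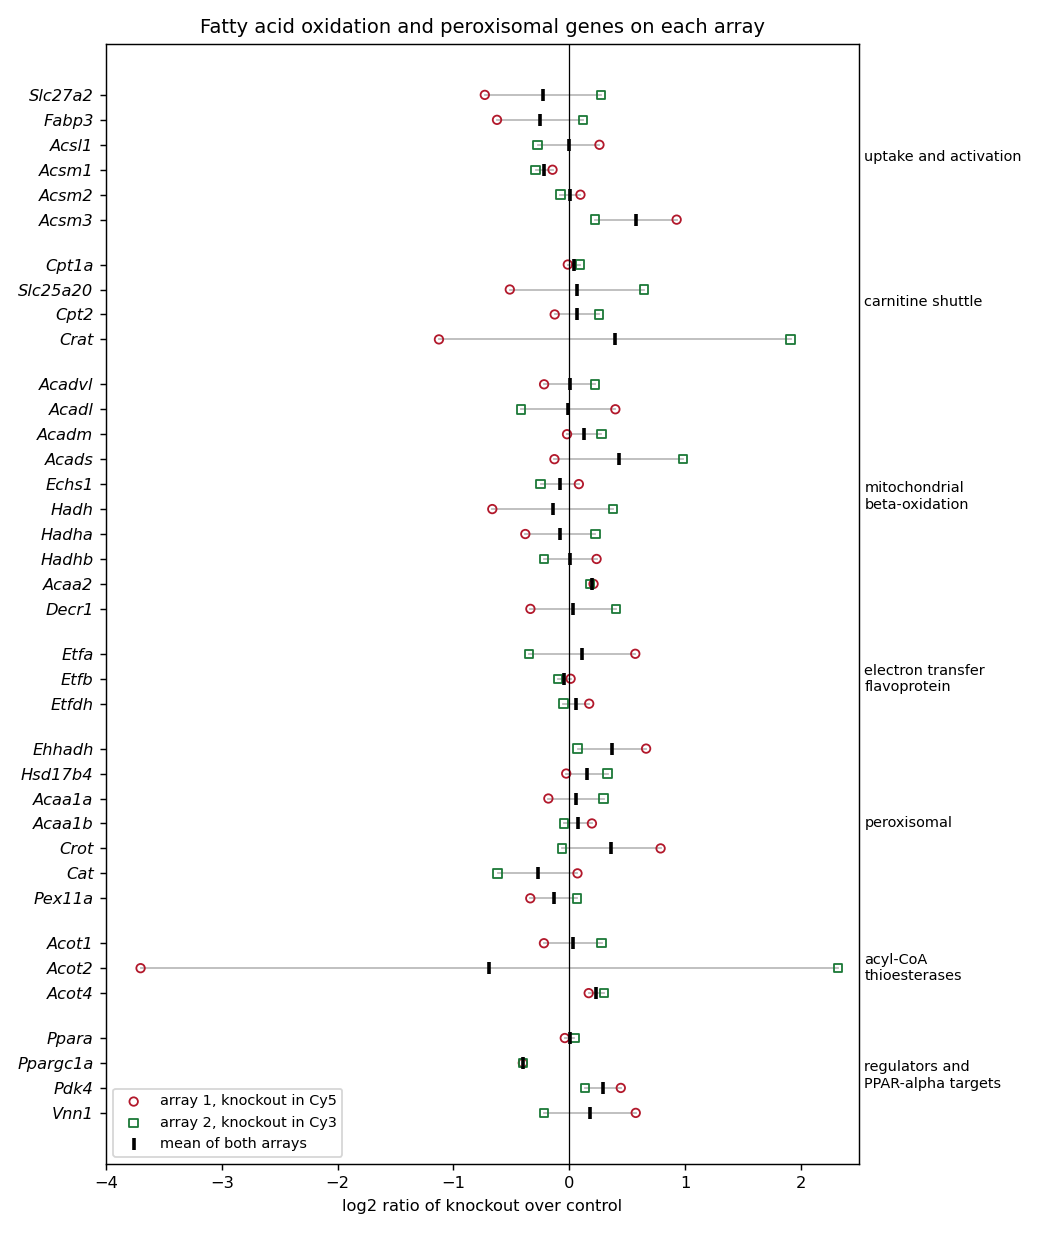
Log2 ratio of knockout over control (horizontal axis) for each of the 37 members, grouped by role, on array 1 (circles), on array 2 (squares) and as the mean of both (bars). The circle and the square lie on the same side of 0 for 7 members, and the widest gap is that of *Acot2*, from -3.70 to 2.32.

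**Figure D2:**
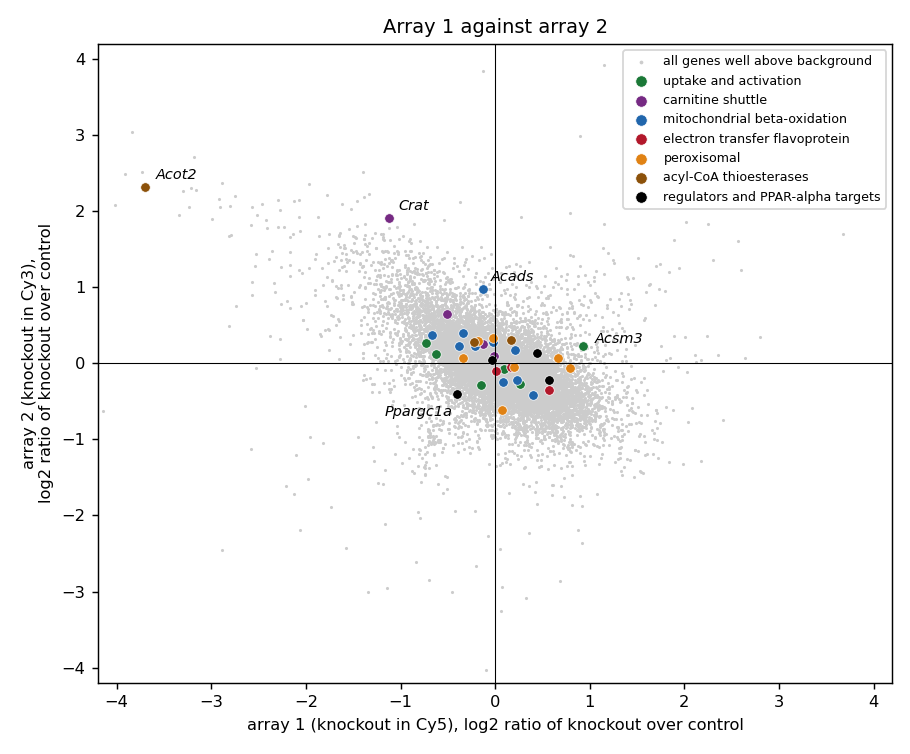
Log2 ratio of knockout over control on array 1 (horizontal axis) against array 2 (vertical axis), with all 19707 genes in grey and the 37 members coloured by role. Axes end at 4.2 in either direction, which leaves 4 genes out of view. Most members lie to the upper left and the lower right of the centre, where the arrays have opposite directions, while *Acsm3* (upper right) and *Ppargc1a* (lower left) have equal directions.

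Among the genes of fatty acid uptake and activation, 2 of 6 had an equal direction on both arrays, both of them medium-chain synthetases. For *Acsm3*, the knockout log2 signal was 15.69 and the control log2 signal 14.76 on array 1, against 15.21 and 14.98 on array 2. Both knockout signals were above both control signals. The log2 ratios were 0.93 and 0.22, with a mean of 0.58 ± 0.50 (SD of 2 arrays), so the size rests largely on array 1. A second *Acsm3* probe gave 1.104 and 0.155, with a mean of 0.63. With background-subtracted signals that were centred on the median and not otherwise corrected for dyes, the ratios were 1.31 and -0.22, and the direction no longer held on both arrays.

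*Acsm1*, a synthetase of the same family, was lower on both arrays by a small amount. Its log2 signals were 13.42 in the knockout and 13.57 in the control on array 1, and 13.03 and 13.32 on array 2, where the channels of the arrays overlapped. The mean log2 ratio was -0.22 ± 0.10 (SD of 2 arrays). Its second probe followed the dyes, with -1.04 and 0.71, and with background-subtracted, median-centred signals the brightest probe did so too, with 0.09 and -0.54. *Acsm2* had 0.10 and -0.08. These genes are neighbours on chromosome 7, where the mm9 positions in the files place the probes of *Acsm2* at 126739631 to 126739690, of *Acsm1* at 126805969 to 126806028 and of *Acsm3* at 126928021 to 126928080. Of their relatives outside the list, *Acsm5* had -0.00 and -0.02, and *Acsm4* was not well above background.

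The remaining genes of uptake and activation followed the dyes in the processed signals. *Slc27a2*, a carrier and synthetase for very long chains, had log2 ratios of -0.73 and 0.27. *Fabp3*, a fatty acid binding protein, had -0.62 and 0.12, and its second probe, with -0.67 and 0.16, repeated this. With background-subtracted, median-centred signals, both genes were lower on both arrays, *Slc27a2* with -0.16 and -0.39 and *Fabp3* with -0.39 and -0.13. *Acsl1*, the long-chain synthetase, had 0.26 and -0.27, with a mean of -0.01, and its second probe had the opposite pattern of -0.16 and 0.41. The median over the 6 genes of uptake and activation was -0.11.

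*Acsm3* is also on a list of genes known to be higher in male than in female mouse kidney. Of the other 6 genes of that list, 3 were higher on both arrays and 0 were lower, against 12.1% and 15.6% of all genes, and their median log2 ratio was 0.26. *Slco1a1*, an organic anion transporter, had 0.58 and 0.31, *Cyp2j13* had 0.31 and 0.31, and *Cyp4a12a*, a fatty acid hydroxylase, had 0.22 and 0.37. The 3 that followed the dyes were *Cyp4a12b* (-0.03 and 0.47), *Slc7a13* (0.83 and -0.49) and *Cyp4b1* (-0.06 and 0.47). The log2 of the summed signals of these 6 was 16.91 and 16.79 in the knockout channels and 16.74 and 16.52 in the control channels. A sum of this kind rests mostly on its brightest genes. Of 4 genes known to be higher in females, *Prlr* (-0.79 and -0.68) and *Slc7a12* (-1.04 and -0.92) were lower on both arrays, *Slco1a6* (0.57 and 0.20) was higher, and *Cyp4a14* (0.14 and -0.39) followed the dyes. *Xist* was not well above background in either genotype, and the Y-linked *Ddx3y* and *Eif2s3y* were, with ratios that followed the dyes. The part of these genes' differences in the *Acsm3* value was not tested.

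The carnitine shuttle held no member with an equal direction on both arrays, and all 4 means were above 0. *Cpt1a*, which commits long chains to mitochondria, had log2 ratios of -0.01 and 0.09. Its probe is printed 10 times, and the SD between spots was 0.019 on array 1 and 0.027 on array 2. A second, dimmer *Cpt1a* probe had -1.16 and 1.33. *Cpt2*, on the inner membrane, had -0.13 and 0.26, and its dimmer second probe had -0.85 and 1.74, with a mean of 0.44. *Slc25a20*, the carnitine-acylcarnitine translocase, had -0.51 and 0.65.

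*Crat*, carnitine acetyltransferase, had the second widest gap between the arrays. The log2 signals were 6.08 in the knockout and 7.20 in the control on array 1, and 8.39 and 6.48 on array 2. The Cy3 channel was the higher on each array. The mean log2 ratio of 0.39 ± 2.15 (SD of 2 arrays) passes 1.3-fold in size and is far smaller than this spread, and with normexp and loess it was 0.15.

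The mitochondrial enzymes of beta-oxidation had a median log2 ratio of 0.01, and 1 of 10 had an equal direction on both arrays. That gene was *Acaa2*, the thiolase of the last step. Its log2 signals were 15.84 in the knockout and 15.63 in the control on array 1, and 15.74 and 15.56 on array 2, with both knockout signals above both control signals. Its mean log2 ratio was 0.20 ± 0.02 (SD of 2 arrays), and the SD between its 10 spots was 0.051 and 0.042. With background-subtracted, median-centred signals the ratios were 0.66 and -0.37.

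The acyl-CoA dehydrogenases open each cycle and differ in the chain length they take. *Acadvl*, for very long chains, had -0.22 and 0.22, *Acadl*, for long chains, had 0.40 and -0.42, with means of 0.0035 and -0.0094. *Acadm*, for medium chains, had -0.02 and 0.28. *Acads*, for short chains, had -0.13 and 0.98, and its mean of 0.43 came from array 2. Log2 signals for *Acads* were 10.83 in the knockout and 10.95 in the control on array 1, and 11.70 and 10.72 on array 2.

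The later steps stood close to 0 in the mean. *Echs1*, the short-chain hydratase, had 0.08 and -0.25. *Hadha* and *Hadhb*, the subunits of the trifunctional protein, ran against each other in both dyes, with -0.38 and 0.23 for the first and 0.24 and -0.22 for the second. *Hadh*, a hydroxyacyl-CoA dehydrogenase, had -0.66 and 0.38. *Decr1*, which handles unsaturated chains, had -0.34 and 0.40, and its second probe had the reverse, 0.34 and -0.34. The electron transfer flavoprotein carries the electrons onward, and its genes *Etfa* (0.57 and -0.35), *Etfb* (0.01 and -0.10) and *Etfdh* (0.17 and -0.05) also followed the dyes. A second, dimmer *Etfa* probe was higher on both arrays, with 0.24 and 0.07.

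Of the 7 peroxisomal members, *Ehhadh* was higher on both arrays. *Ehhadh* encodes the bifunctional enzyme for straight chains. On the signal scale, *Ehhadh* stood at 14.58 in the knockout and 13.92 in the control on array 1, and 14.41 and 14.34 on array 2. Both knockout signals were above both control signals, by little on array 2. The mean log2 ratio was 0.37 ± 0.42 (SD of 2 arrays), just short of 1.3-fold, and with background-subtracted, median-centred signals the ratios were 0.97 and -0.30.

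*Crot*, which readies shortened chains for export on carnitine, had a similar mean of 0.36 with ratios of 0.79 and -0.06. *Cat*, catalase, had 0.07 and -0.62, and its second probe had -0.42 and 0.26. *Hsd17b4*, the bifunctional enzyme for branched chains, had -0.03 and 0.33. The thiolases *Acaa1a* (-0.18 and 0.30) and *Acaa1b* (0.20 and -0.05) are close copies of each other, and how far a probe reads the other copy was not tested. *Pex11a*, a gene of peroxisome division, had -0.34 and 0.07, with an SD between its 10 spots of 0.018 and 0.016. The gap between its arrays was therefore wider than the spread between spots of an array.

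Acyl-CoA thioesterases split acyl-CoAs back into fatty acid and coenzyme A. *Acot4* was higher on both arrays. The signals on the log2 scale were 11.50 in the knockout and 11.34 in the control on array 1, and 11.54 and 11.24 on array 2, with both knockout signals above both control signals. The mean log2 ratio was 0.23 ± 0.09 (SD of 2 arrays), and its direction held under every alternative run on both arrays. Most of these left its ratios almost unchanged, and with background-subtracted, median-centred signals they were 0.34 and 0.15. *Acot1* had -0.22 and 0.28.

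*Acot2* had the widest gap of all members, with log2 signals of 4.75 in the knockout and 8.45 in the control on array 1, and 8.24 and 5.92 on array 2. The Cy3 channel was the higher on each array, and the mean of -0.69 ± 4.26 (SD of 2 arrays) gives no direction. The mean moved to -0.43 with normexp and loess and to -0.32 with loess and no background correction. These thioesterase genes lie together on chromosome 12, where the mm9 probe positions are 85334071 to 85334130 for *Acot2*, 85358561 to 85358620 for *Acot1* and 85384821 to 85384880 for *Acot4*. The neighbouring *Acot3*, outside the list, was lower on both arrays (-0.05 and -0.42). The genes are close copies, so cross-reading of probes was not tested here either.

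Of the regulators and PPAR-alpha targets, *Ppargc1a* had the most equal ratios of all members in the processed signals. Its log2 signals were 11.49 in the knockout and 11.89 in the control on array 1, and 11.40 and 11.80 on array 2. Both knockout signals were below both control signals. The log2 ratios were -0.40 and -0.40, with a mean of -0.40 ± 0.0019 (SD of 2 arrays). With background-subtracted, median-centred signals they were -0.20 and -0.60, so the narrow SD belongs to the processed signals. The second probe, with -0.02 and -0.37, had the same direction and a smaller mean of -0.20. With normexp background correction and loess the mean was -0.36, and with the median over both probes it was -0.30, each short of 1.3-fold.

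*Ppara*, the receptor itself, had -0.04 and 0.04 with its brightest probe. A dimmer *Ppara* probe had 0.45 and -0.38, and the dimmest was lower on both arrays, with -0.68 and -0.03 and a mean of -0.35. *Pdk4*, a kinase that turns off pyruvate dehydrogenase when fat is burned, was higher on both arrays. For this kinase the log2 signals were 10.20 in the knockout and 9.76 in the control on array 1, and 9.69 and 9.56 on array 2, where the channels of the arrays overlapped. The mean log2 ratio was 0.29 ± 0.22 (SD of 2 arrays). With background-subtracted, median-centred signals the *Pdk4* ratios were 0.59 and 0.01. *Vnn1*, which encodes pantetheinase, had 0.57 and -0.22.

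**Figure D3:**
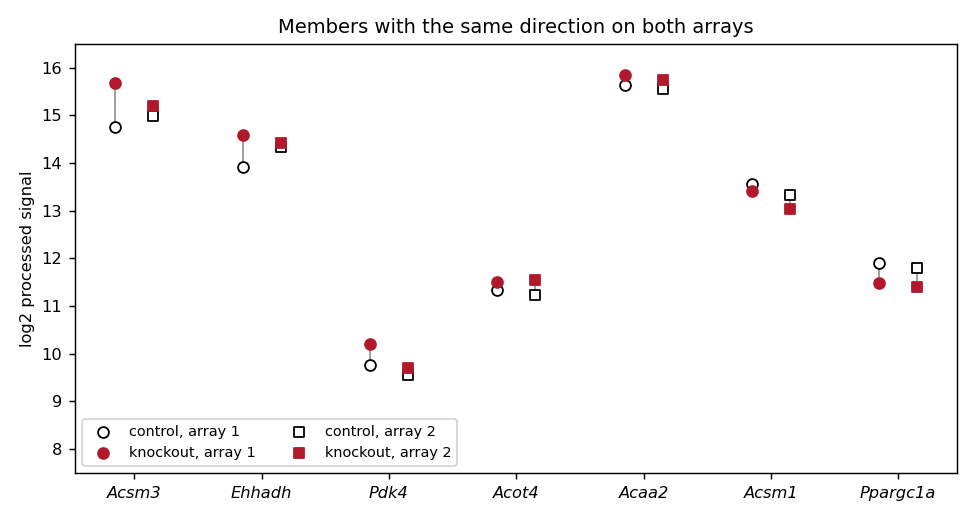
Log2 processed signal (vertical axis) of the 7 members with an equal direction on both arrays, in the control (open) and knockout (filled) channels of array 1 (circles) and array 2 (squares). The knockout signal is above the control signal of its array for *Acsm3*, *Ehhadh*, *Pdk4*, *Acot4* and *Acaa2* and below it for *Acsm1* and *Ppargc1a*, whose ratios were -0.40 on either array.

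PPAR-alpha and RXR bind repeats of the hexamer AGGTCA, so this was looked for in promoters of the members. RefSeq promoter sequences of the GRCm38.p6 build were at hand for 32 of the 37 members, and *Crat*, *Acaa2*, *Decr1*, *Hsd17b4* and *Vnn1* were not matched. In the 250 bases before the start of transcription, on either strand, AGGTCA stood in 8 of 32 members (25.0%) and in 15.8% of 27025 genes. The full repeat AGGTCANAGGTCA, with the spacer letter free, stood in 0 of 32 members and in 0.0407% of all genes. Only exact letters were counted, so with a repeat this rare a count of 0 says little about the members. Any such repeat also counts under the hexamer. Matches are descriptions of these letters and not of binding. Members holding the hexamer were *Acadm*, *Acadvl*, *Acot4*, *Acsm1*, *Cat*, *Cpt1a*, *Echs1* and *Slc27a2*.

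The sequences below belong to the members that passed 1.3-fold, *Acsm3* and *Ppargc1a*, which hold no match, and to *Acsm1* and *Acot4*, which are the members with both a match and an equal direction on both arrays. They are written 5′ to 3′ on the gene's strand, with the hexamer or its reverse complement in capitals. The *Acsm3* stretch is chr7:119760673-119760922 (plus strand), that of *Ppargc1a* is chr5:51567726-51567975 (minus strand), that of *Acsm1* is chr7:119617562-119617811 (plus strand), and that of *Acot4* is chr12:84038129-84038378 (plus strand).
Acsm3: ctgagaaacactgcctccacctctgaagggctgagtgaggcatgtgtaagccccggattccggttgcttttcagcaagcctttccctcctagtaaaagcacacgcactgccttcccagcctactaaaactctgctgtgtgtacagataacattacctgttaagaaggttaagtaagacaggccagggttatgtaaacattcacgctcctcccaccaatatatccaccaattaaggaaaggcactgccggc
Ppargc1a: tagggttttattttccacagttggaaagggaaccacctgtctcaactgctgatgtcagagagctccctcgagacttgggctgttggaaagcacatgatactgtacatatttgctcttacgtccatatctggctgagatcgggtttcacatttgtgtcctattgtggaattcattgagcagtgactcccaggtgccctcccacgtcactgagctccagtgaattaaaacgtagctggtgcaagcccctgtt
Acsm1: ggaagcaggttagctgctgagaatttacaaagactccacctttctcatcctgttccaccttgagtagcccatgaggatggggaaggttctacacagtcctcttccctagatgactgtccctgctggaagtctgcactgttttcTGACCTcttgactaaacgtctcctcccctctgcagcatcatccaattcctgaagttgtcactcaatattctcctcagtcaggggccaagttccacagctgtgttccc
Acot4: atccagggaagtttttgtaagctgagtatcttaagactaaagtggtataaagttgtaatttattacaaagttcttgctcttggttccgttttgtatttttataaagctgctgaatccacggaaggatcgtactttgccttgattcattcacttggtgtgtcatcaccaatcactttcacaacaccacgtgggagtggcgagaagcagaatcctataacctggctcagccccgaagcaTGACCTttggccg
Of the members with the hexamer, *Acot4* was higher on both arrays, *Acsm1* was lower, and the other 6 followed the dyes, so the matches went with no single direction.

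A wider list of 130 other genes of fat oxidation and peroxisomes was set beside the members, of which 120 were well above background. Their median log2 ratio was 0.04. By direction alone 28 (23.3%) were higher on both arrays and 17 (14.2%) were lower, against 12.1% and 15.6% of all genes. With a mean of at least 1.3-fold, 4 were higher and 2 were lower, where the rule counted 2.14% and 2.44% of all genes. In 75 (62.5%) the arrays had opposite directions, against 72.3% of all genes.

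Of the 28 higher genes of the wider list, 11 were peroxisomal. Among the 27 other peroxisomal genes compared, these 11 (40.7%) were higher on both arrays, 2 (7.41%) were lower, and the median was 0.11. These counts rest on the processed signals alone, and their dependence on the processing was not tested. The bright members *Acaa2* and *Acsm3* lost their direction with background-subtracted, median-centred signals. *Amacr*, a racemase for branched chains and bile acid precursors, had 0.52 and 0.34, with a mean of 0.43. *Pecr*, an enoyl-CoA reductase, had 0.64 and 0.17, with a mean of 0.41. *Acox2*, the oxidase for branched chains (0.29 and 0.21), *Nudt19*, a hydrolase of coenzyme A (0.40 and 0.33), *Scp2*, a sterol carrier and thiolase (0.19 and 0.12), and *Phyh*, which starts alpha-oxidation (0.23 and 0.05), were higher by less than 1.3-fold. *Hao2*, a hydroxy acid oxidase, was lower (-0.36 and -0.26), as was *Pxmp2*, a channel of the peroxisomal membrane (-0.08 and -0.20). The log2 of the summed signals of this list was 19.35 and 19.06 in the knockout channels of arrays 1 and 2. In the control channels it was 19.10 and 18.93.

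Of 14 peroxins, which build the organelle, 2 were higher, 1 was lower, and the median was 0.03. Of 15 other genes of mitochondrial oxidation, 3 were higher and 3 lower, and *Cpt1c*, a brain form of the carnitine enzyme with log2 signals between 4.62 and 5.15, was the one lower by 1.3-fold (-0.54 and -0.22). Among 24 other genes of uptake, activation and thioesterases, 3 were higher and 6 lower. *Fabp1*, the liver fatty acid binding protein, was higher (0.36 and 0.57), and *Cd36*, a fatty acid receptor, had -0.07 and -0.23. Of 5 ketone body genes, 1 was higher and 1 was lower, and the median was 0.10. By the same rule, 12.1% of all genes were higher and 15.6% were lower.

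Regulators and known targets of PPAR-alpha ran in both directions. Of the 35 outside the members, 8 were higher on both arrays and 4 were lower, against 12.1% and 15.6% of all genes. *Cyp4a12a*, which is also on the list of genes higher in male kidney, is among the 8. The median of the 35 was 0.07. *Angptl4*, an inhibitor of lipoprotein lipase, had the highest mean, 0.50, with log2 ratios of 0.48 and 0.53. Its log2 signals were 13.67 in the knockout and 13.19 in the control on array 1, and 13.36 and 12.83 on array 2. *Plin2*, a lipid droplet coat, had 0.04 and 0.06, *Cyp4a10* had -0.10 and 0.34, and *Cyp4a14* had 0.14 and -0.39. *Ppargc1b*, the relative of *Ppargc1a*, was lower on both arrays, with -0.75 and -0.10 and a mean of -0.43. *Esrra*, a receptor that works with both coactivators, had -0.22 and 0.27.

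**Figure D4:**
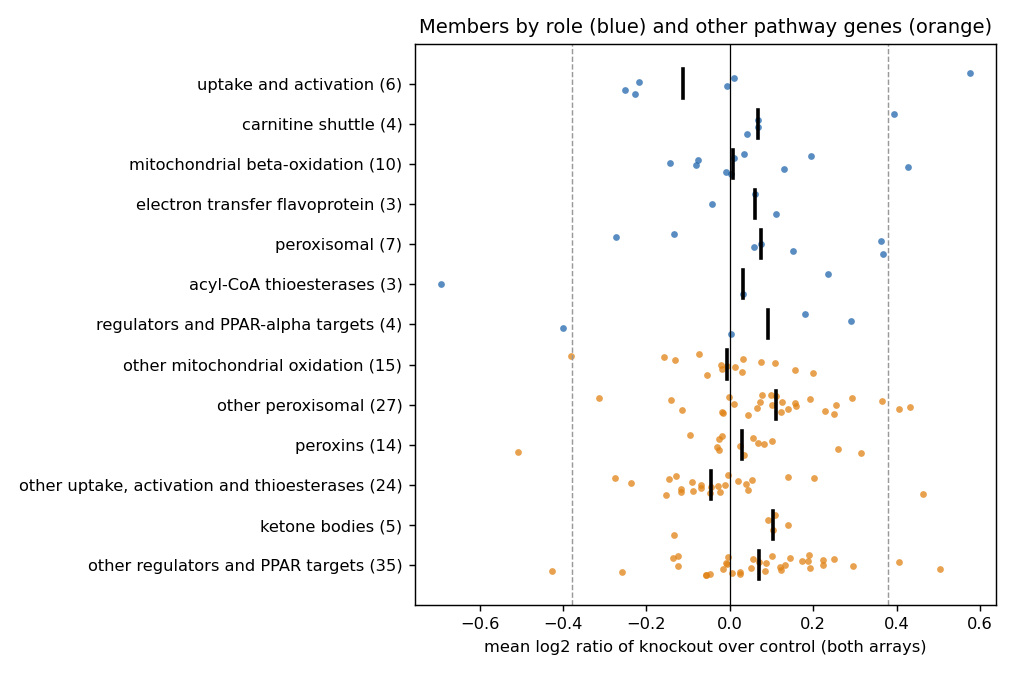
Mean log2 ratio of knockout over control over both arrays (horizontal axis) for the members by role (blue) and for the other pathway genes by list (orange), with the number of genes in brackets, black bars at the medians and dashed lines at 1.3-fold. A point past a dashed line can still have opposite directions on the arrays, as *Acot2* (-0.69) and *Crat* (0.39) do.

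In whole kidney RNA, fewer cells of a type and less RNA per cell cannot be told apart. Markers of the proximal tubule, the main site of fat oxidation in kidney, were all 18 well above background. Of these, 4 were higher on both arrays, 2 were lower, and none reached 1.3-fold, with means from -0.16 to 0.34. *Lrp2*, the endocytosis receptor megalin, had 0.28 and -0.45, and *Slc34a1*, the phosphate carrier, had 0.47 and -0.18. The 6 markers of the distal convoluted tubule had means between -1.75 and -0.30. Of these, 4 were lower by at least 1.3-fold (*Calb1*, *Pvalb*, *Trpm6* and *Wnk1*). *Pvalb* and *Trpm6* are among the lower genes that the study listed from these arrays. *Slc12a3*, which encodes NCC (-0.78 and 0.19), and the dim *Klhl3* (-0.91 and 0.28) followed the dyes. The log2 of the summed signals of the 6 was 13.81 and 13.59 in the knockout channels and 14.47 and 14.40 in the control channels. Of 5 podocyte markers 4 were lower on both arrays. The log2 of their summed signals was 13.28 and 13.02 in the knockout and 13.74 and 13.16 in the control channels. All 11 of these markers were well above background in at least 1 genotype. Of 10 collecting duct markers 5 were lower on both arrays (*Aqp3*, *Foxi1*, *Scnn1g*, *Slc26a4* and *Slc4a1*) and 0 were higher, with a median of -0.18. The log2 of their summed signals was 15.19 and 15.20 in the knockout and 15.47 and 15.10 in the control channels. Of 5 markers of the thick ascending limb, *Umod* and *Kcnj1* were lower and 0 were higher. The log2 of the summed signals of these 5 was 17.49 and 17.15 in the knockout and 17.55 and 17.35 in the control channels. Of the collecting duct markers, *Scnn1g* was dim, with log2 signals between 3.89 and 5.04. By direction alone, 15.6% of all genes were lower and 12.1% were higher. Lower markers were thus counted beside *Ppargc1a* in these 4 lists, and their part in its value was not tested.

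**Figure D5:**
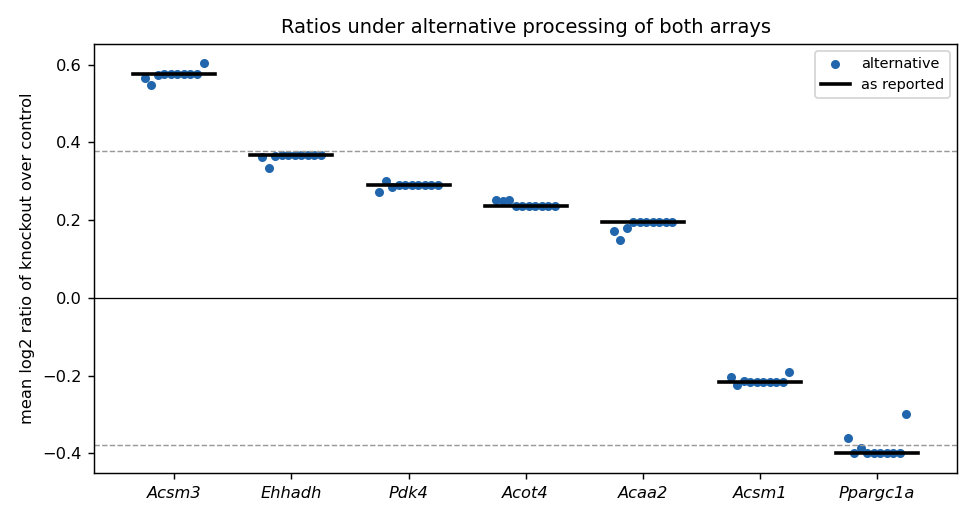
Mean log2 ratio of knockout over control (vertical axis) of the 7 members with an equal direction on both arrays, as reported (bars) and under the 10 alternatives that use both arrays (points), with dashed lines at 1.3-fold. *Acsm3* stays between 0.55 and 0.60, while *Ppargc1a* lies between -0.40 and -0.30 and comes inside the dashed line under 2 alternatives. The means hide the arrays, whose directions parted under at least 1 alternative for *Acsm3*, *Ehhadh*, *Acaa2* and *Acsm1*.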

How the data were processed

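Knockout and control kidney RNA were compared on 2 dye-swapped arrays. The authors deposited scanner output with the signal intensity of each spot, raw, background-subtracted and processed. Per the file headers, Agilent Feature Extraction 10.7.3.1 made it, while the submitters' processing notes name 10.5.1.1. The deposited log10 ratio is that of red over green signals in the scanner files and of knockout over control in the series matrix, each with 1 column per array, and the matrix columns have medians of 0.

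Control spots and spots that the software marked as non-uniform or as outliers were left out (141 and 175 of 43020), spots of a probe were averaged, and the brightest of the probes of a gene by mean log2 signal was kept. The mean and SD of the log2 ratio were taken over both arrays. With 1 replicate per genotype no p-values are given, and precision is limited by the number of arrays. Calls rest on equal direction on both arrays and a mean of at least 2-fold, 1.3-fold or any size. The named genes are all members, fixed genes of the wider list (some not reported here) with its genes past 1.3-fold, and marker genes. Those of the wider list at smaller sizes were picked after their values were seen. The members and lists were chosen with earlier results of these data known. The code was tested on simulated data. Alternatives were normexp (offset of 50) with loess, median-centred, background-subtracted signals (floor of 1), loess without background correction, the deposited ratios, other limits on dim, marked and saturated spots, the median over probes, each array alone, and the methods' t-test. R 4.3.3 with limma 3.58.1 and Python 3.11.15 with pandas 2.3.3 and scipy 1.17.1 were used.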

Additional observations from a re-analysis of the deposited data

How the results depend on the processing

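The direction of both arrays was kept by *Acot4*, *Pdk4* and *Ppargc1a* under all 10 alternatives that use both arrays, and lost by *Acsm3*, *Ehhadh*, *Acaa2* and *Acsm1* with background-subtracted, median-centred signals and by *Acsm1* also with the median over probes. The deposited ratios, the series matrix and the limits on dim, marked and saturated spots left the members' ratios almost unchanged. They could therefore hardly change a direction. For *Acot4* and *Pdk4*, with 1 probe each, neither could the median over probes. With background-subtracted, median-centred signals *Pdk4* kept its direction by 0.01 on array 2. No member with an equal direction reached 2-fold under these 10. The methods' t-test, paired over the arrays, therefore also counts 0 members before and after Benjamini-Hochberg adjustment: its limit of 2-fold fixes this whatever its p-values, so it says nothing more about the members. The number lower by 1.3-fold was 0 with normexp and loess, which counted 0.609% of all genes, and 0 with the median over probes. The 1 member higher by 1.3-fold was *Acsm3* under 9 of the 10 and *Acads* with background-subtracted, median-centred signals. By direction alone, 4 members were lower under that setting (*Fabp3*, *Pex11a*, *Ppargc1a* and *Slc27a2*), where 13.1% of all genes were lower and 11% higher. With the median over probes *Cat*, *Ppara* and *Ppargc1a* were lower. The number of members higher ran from 4 to 7, and the median of the members from 0.02 to 0.06. The 7 counted with normexp and loess stand beside 15.6% of all genes. A single array keeps its dye effects and has no second direction to meet. Leaving out array 1 or array 2 gave between 0 and 2 members higher and between 0 and 2 lower by 2-fold. By 1.3-fold it gave 5 to 7 higher and 3 to 8 lower, and at any size 17 to 23 higher and 14 to 20 lower. Shares of all genes are not given for these counts, so they do not set the members apart. The median of the members was 0.12 without array 1 and -0.02 without array 2, against -0.05 and 0.03 over all genes. Each ratio already pairs the genotypes within an array, and a fit with a block of mice could not be made with 1 replicate of each genotype. The causes of these shifts were not tested.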

Other observations

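Fat around the kidney expresses many of the same genes, so its markers were read as well. Of 9 adipose markers, 7 were well above background, 2 were higher on both arrays and 3 were lower, none by 1.3-fold, with a median log2 ratio of -0.14. By direction alone, 12.1% of all genes were higher and 15.6% were lower. *Adipoq*, which encodes adiponectin, followed the dyes with 0.05 and -0.33, as did *Plin1*, the coat of large lipid droplets, with 0.16 and -0.15. The 3 lower genes were *Cfd*, which encodes adipsin (-0.23 and -0.32), *Cidea*, a droplet protein (-0.31 and -0.16), and *Retn*, which encodes resistin (-0.20 and -0.08). The higher ones were *Cidec*, another droplet protein (0.23 and 0.37), and *Ucp1*, the uncoupler of brown fat (0.18 and 0.02), while *Lep* and *Elovl3* were not well above background. The log2 of the summed signals of the 7 markers above background was 12.97 and 12.58 in the knockout channels of arrays 1 and 2. In the control channels it was 13.14 and 12.82. Among 6 adrenal markers, 2 were well above background. *Ttr*, the carrier of thyroid hormone and retinol that was listed as a liver marker, was higher on both arrays, with 1.34 and 0.47, while *Alb* had 0.18 and -0.31.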
